A study of Mus musculus with 4 samples.

Results

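Irf8, F13a1, Lyz2, Fcgr3, Klf4, Ly86, Cd68, Igsf6 and Clec12a are genes of the monocyte lineage, the branch of blood formation that gives rise to monocytes, macrophages and part of the dendritic cells. They were chosen by name from what is known of that lineage, at a time when earlier results of these data were known. Each was read at every probe set whose only symbol in the platform annotation was that gene. A gene with several probe sets was represented by the one with the highest mean over all arrays. Of the 9 genes, 8 were measured, at 10 probe sets, among 18194 genes in all. Clec12a, a C-type lectin receptor of myeloid cells, had no probe set under that name and was not analysed here.

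The values came from 4 Affymetrix arrays of sorted mouse bone marrow cells, 2 labelled Alox15-/- and 2 labelled WT. Alox15-/- is a genotype without functional Alox15, the gene of arachidonate 15-lipoxygenase, and mice of both groups were C57BL/6 and 8 weeks old. The cells were sorted as Lin-c-Kit+Sca-1+, free of lineage markers but positive for c-Kit and Sca-1, a gate of stem cells and multipotent progenitors that the labels call HSCs. The submitters call the replicates biological but name no animals or pools. The p-values therefore set each difference only against the spread of these samples, as a rule shared in part over all genes. That spread may in part be technical.

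Monocytes arise from progenitors in which PU.1 (encoded by Spi1) and IRF8 are both active. IRF8 is a transcription factor that favours monocyte and dendritic cell fates over the neutrophil fate, and KLF4 is a factor known to act downstream of it in mouse monocyte formation. The other members encode proteins of maturing monocytes and macrophages, such as lysozyme and an immunoglobulin receptor. Multipotent progenitors of the sorted gate are known to carry low levels of myeloid transcripts before any lineage choice.

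The label check went against the genotype name. Alox15 read 10.68 and 10.75 (log2) on the arrays labelled Alox15-/-, against 4.63 and 4.35 on the WT arrays. Both WT values lay below the highest bacterial control of their array. The position of the probe set relative to the deleted part was not known here. An exchange of the labels, which would turn every direction given here, was not tested, so each direction is that of the arrays as labelled. Of the sorting markers, Kit (c-Kit) read 10.34 and 10.23 on the arrays labelled Alox15-/-, against 10.63 and 10.48 in WT. The gene of Sca-1, Ly6a, was not analysed here. The T cell gene Cd3e lay below the highest bacterial control probe set on all arrays. That control, the highest of 27 on each array, read 4.95 to 5.17. It is a rough upper mark for signal without a mouse transcript, and the lowest value of any probe set was 1.515. Itgam, whose product CD11b is a usual myeloid lineage marker, read 5.50 and 5.78 on the arrays labelled Alox15-/-, against 6.22 and 6.08 in WT. In bulk RNA, more cells of a type and more RNA per cell cannot be told apart.

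The promoters of the 3 members with the largest positive differences, and of Lyz2, which differed little between the groups, are printed here so that the letters before each gene's start can be set beside the values. Each run is the 250 bases before a RefSeq gene start of build GRCm38.p6, 5′ to 3′ on the gene's strand, at chr8:120736108-120736357 (plus strand) for Irf8, chr13:37050245-37050494 (minus strand) for F13a1, chr13:37345095-37345344 (plus strand) for Ly86 and chr10:117282273-117282522 (minus strand) for Lyz2. Capitals mark matches to the motifs searched.
Irf8: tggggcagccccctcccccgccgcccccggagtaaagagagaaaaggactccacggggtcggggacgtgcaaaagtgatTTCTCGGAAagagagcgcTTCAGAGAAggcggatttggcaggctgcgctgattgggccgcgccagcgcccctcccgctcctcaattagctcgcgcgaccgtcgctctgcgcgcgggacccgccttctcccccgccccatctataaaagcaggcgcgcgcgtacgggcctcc
F13a1: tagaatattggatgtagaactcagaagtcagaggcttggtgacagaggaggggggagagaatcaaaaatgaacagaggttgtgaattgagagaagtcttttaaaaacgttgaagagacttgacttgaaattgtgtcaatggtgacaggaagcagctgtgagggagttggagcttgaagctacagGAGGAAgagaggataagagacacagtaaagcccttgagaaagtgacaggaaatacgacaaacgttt
Ly86: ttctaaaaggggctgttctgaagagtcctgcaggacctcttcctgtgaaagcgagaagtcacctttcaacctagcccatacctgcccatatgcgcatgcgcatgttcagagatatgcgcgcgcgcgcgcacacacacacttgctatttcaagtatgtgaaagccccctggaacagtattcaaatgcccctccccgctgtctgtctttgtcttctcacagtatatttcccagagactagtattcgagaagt
Lyz2: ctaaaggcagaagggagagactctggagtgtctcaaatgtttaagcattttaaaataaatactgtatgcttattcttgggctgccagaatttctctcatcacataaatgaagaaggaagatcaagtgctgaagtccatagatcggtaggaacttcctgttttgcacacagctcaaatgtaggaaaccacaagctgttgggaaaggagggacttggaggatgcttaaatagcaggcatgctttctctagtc

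Motifs of 4 factor families of myeloid cells were searched on both strands, and no match of one overlapped a match of another in these 4 windows. The PU.1 core GAGGAA was in 23.3% of all 32851 promoter windows, the C/EBP motif TTGCNNAA in 9.56%, the STAT motif TTCNNNGAA in 7.02% and the IRF motif, GAAA repeated after any 2 letters, in 2.98%. The Irf8 window held 2 STAT motifs, TTCTCGGAA starting 171 bases and TTCAGAGAA starting 153 bases before the gene start. The F13a1 window held 1 PU.1 core, starting 66 bases before the start. None of the 4 motifs was found in the Ly86 or Lyz2 windows. Among the 8 measured members the PU.1 core was found in 4, namely F13a1, Fcgr3, Igsf6 and Cd68, and the C/EBP motif in 2, Fcgr3 and Cd68. The STAT motif was found in 1, Irf8, and the IRF motif in 0. Counted the same way, over any RefSeq start of a gene, 25.9% of 27025 genes held the PU.1 core, 10.8% the C/EBP motif, 8.13% the STAT motif and 3.46% the IRF motif. F13a1 and Irf8 each have a second RefSeq start, whose window held none of the 4 motifs. A match describes letters in a window and shows no binding.

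F13a1, Ly86, Irf8 and Fcgr3 read higher on both arrays labelled Alox15-/- than on either WT array, and the largest difference was that of F13a1. None of the 8 members passed the threshold of limma adjusted p under 0.05 over all genes, a call made for 0.0055% of genes tested (Alox15 alone). At an unadjusted limma p under 0.05, 3 of the 8 (F13a1, Ly86 and Irf8) were higher and 0 were lower, against 4.2% of all genes higher and 3.57% lower. The groups did not overlap for 6 members, 4 higher and 2 lower, against 21.4% and 17.1% of all genes. Differences were above 0 for 5 of 8 members and for 53.8% of all genes. The median difference of the 8 members was 0.30 on the log2 scale, against 0.02 over all genes.

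**Figure D1:**
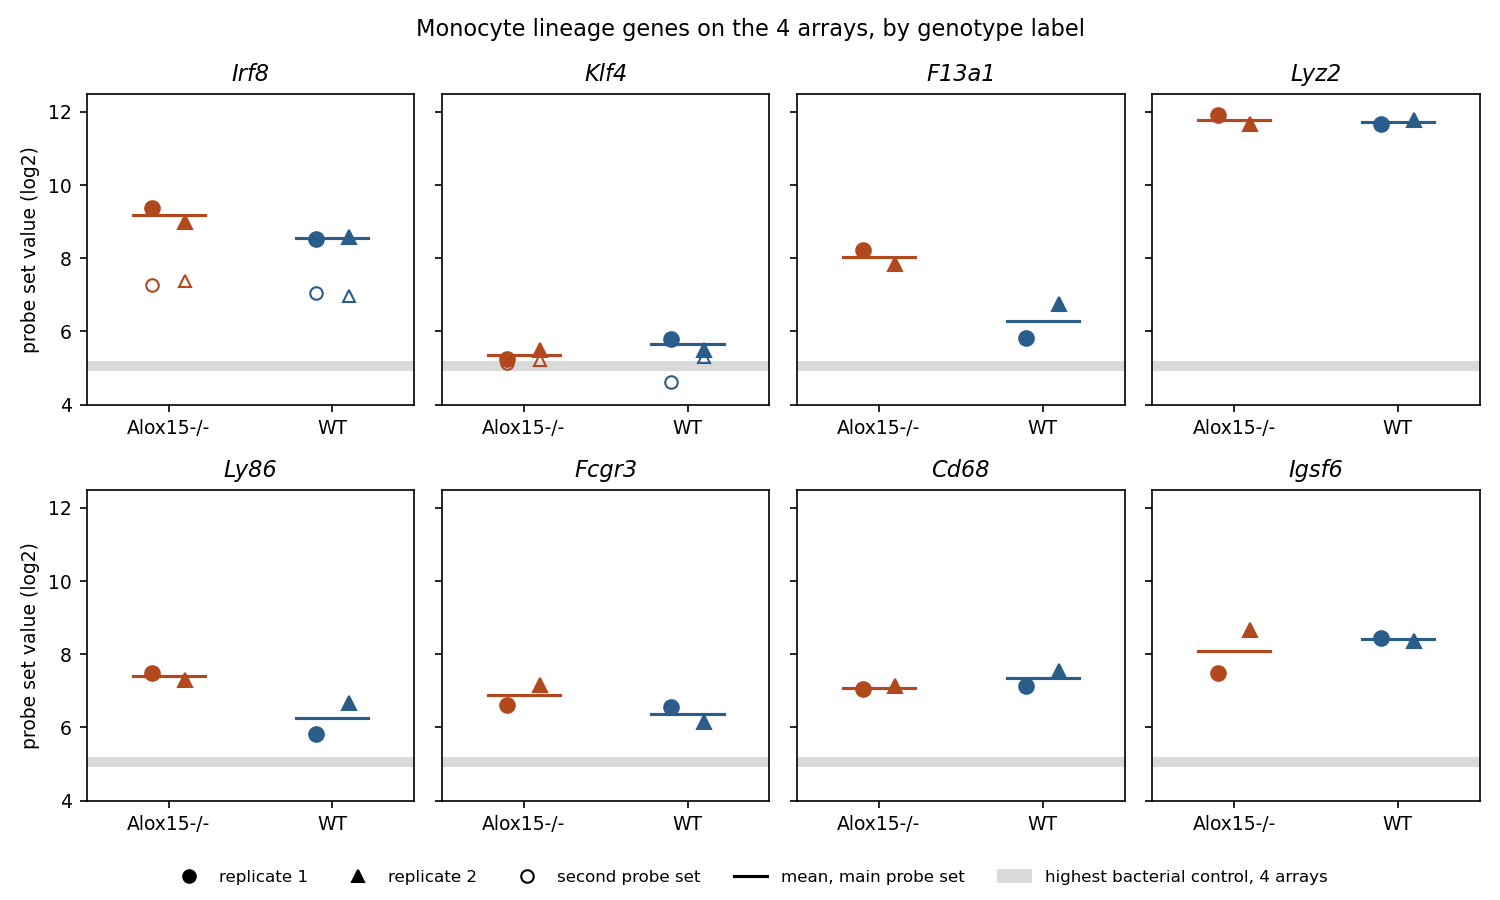
Probe set values (log2) of the 8 measured monocyte lineage genes on each array, arrays labelled Alox15-/- left of WT, with replicate 1 as circles, replicate 2 as triangles, a second probe set as open symbols, group means as lines and the range of the highest bacterial control in grey. F13a1 and Ly86 read above both WT arrays on both arrays labelled Alox15-/-, Lyz2 lies between 11.67 and 11.91 everywhere, and Klf4 lies close to the grey band.

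Irf8, the lineage transcription factor, read 9.36 and 8.998 on the arrays labelled Alox15-/-, against 8.54 and 8.58 on the WT arrays. Both arrays labelled Alox15-/- lay above both WT arrays, and the WT arrays differed by little. The difference was 0.62 ± 0.17 (SE), a 1.54-fold ratio with a 95% limma interval of 1.15 to 2.06, and limma adjusted p was 0.578 (unadjusted p = 0.0126). Its second probe set read 7.27 and 7.39 on the arrays labelled Alox15-/-, against 7.06 and 6.97 in WT, a difference of 0.31 ± 0.14 (SE). The second probe set thus gave the same order of groups with a smaller gap. Without 1 array the Irf8 difference ran from 0.44 to 0.80, and the lower value was that without Alox15-/- replicate 1.

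Klf4, the transcription factor placed downstream of IRF8 in mouse monocytes, read 5.25 and 5.49 on the arrays labelled Alox15-/-, against 5.80 and 5.50 in WT. The groups just failed to overlap, and all 4 values lay near the highest bacterial control. The difference was -0.28 ± 0.17 (SE) with limma adjusted p = 0.734. A second Klf4 probe set differed by 0.21 ± 0.25 (SE), the opposite sign, with 4.63 in WT replicate 1 and 5.15 to 5.30 on the other arrays. The probe sets of this gene therefore gave no common direction.

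F13a1 encodes the catalytic A subunit of coagulation factor XIII, a transglutaminase that crosslinks fibrin and is made by monocytes, macrophages and megakaryocytes. It read 8.23 and 7.86 on the arrays labelled Alox15-/-, against 5.81 and 6.74 on the WT arrays. Both arrays labelled Alox15-/- read higher than either WT array, and the WT arrays stood well apart from each other. The mean was 8.04 ± 0.26 on the arrays labelled Alox15-/- and 6.28 ± 0.66 in WT (SD, n = 2 each). The difference was 1.76 ± 0.33 (SE), a 3.40-fold ratio (95% limma interval 1.91 to 6.05), with limma adjusted p = 0.487 and unadjusted p = 0.00253. It was 1.30 without WT replicate 1, the lower WT array, and 2.23 without WT replicate 2. F13b, the carrier subunit of the same factor and a product of liver, read below the bacterial controls' highest value on every array. The transglutaminase genes Tgm1 and Tgm2 differed by 0.34 ± 0.16 and -0.26 ± 0.15 (SE). The 5 other probe sets of Tgm2 ran from -0.21 to 0.235.

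Ly86 encodes MD-1, the secreted partner of the receptor RP105 (Cd180) on myeloid and B cells. It read 7.50 and 7.30 on the arrays labelled Alox15-/-, against 5.83 and 6.68 on the WT arrays. As for F13a1, WT replicate 1 was the lowest array and the groups did not overlap. The difference was 1.14 ± 0.29 (SE), 2.21-fold (95% limma interval 1.32 to 3.69), with limma adjusted p = 0.575 and unadjusted p = 0.0103. Without WT replicate 1 it was 0.72, which is over 1.5 times smaller. The partner Cd180 read 7.75 and 7.62 on the arrays labelled Alox15-/-, against 6.90 and 7.33 in WT, a difference of 0.57 ± 0.19 (SE) with limma adjusted p = 0.618. The related receptor gene Tlr4 differed by -0.21 ± 0.27 (SE) with overlapping groups, and its 3 other probe sets ran from -0.42 to 0.50. Its partner Ly96 (MD-2) differed by -0.09 ± 0.17 (SE), and no test compared these genes with Ly86 and Cd180.

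F13a1 and Ly86 are neighbours on mouse chromosome 13. RefSeq (GRCm38.p6) places 0 protein-coding genes between them. The nearest measured gene on the side of F13a1, Nrn1, differed by -0.07 ± 0.13 (SE) and read below the bacterial controls' highest value on every array. The nearest on the side of Ly86, Rreb1, a zinc finger transcription factor, differed by -0.12 ± 0.14 (SE). Over 10 measured genes on each side of the pair the differences ran from -0.24 (Eci3) to 0.36 (4933417A18Rik), and none had an unadjusted limma p under 0.05. This neighbourhood was looked at after the values of the pair were known.

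**Figure D2:**
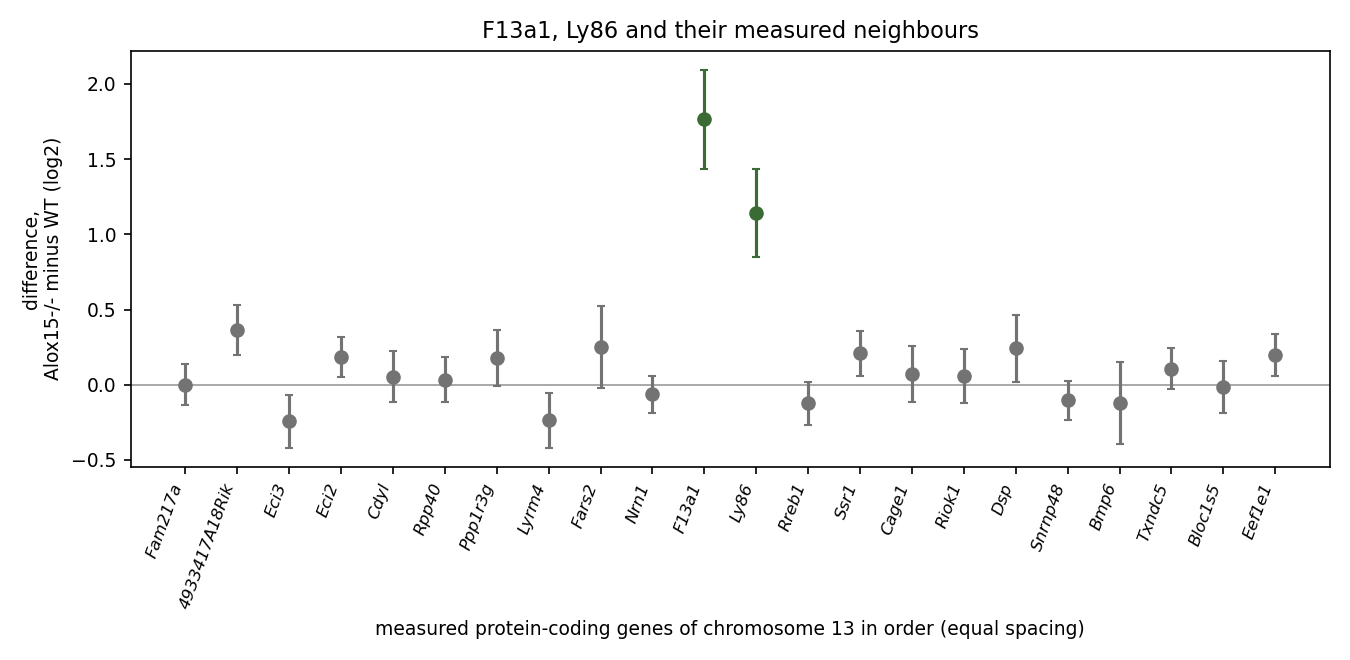
Difference (log2, Alox15-/- minus WT) with its standard error as bars for F13a1 and Ly86 (green) and the 10 nearest measured protein-coding genes on each side (grey), in chromosome order with equal spacing. The pair lies at 1.76 and 1.14, and the other genes lie between -0.24 and 0.36.

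Lyz2 encodes lysozyme of myeloid cells, an enzyme that cleaves bacterial cell walls and whose promoter drives a widely used Cre line for macrophages and neutrophils. It read 11.91 and 11.67 on the arrays labelled Alox15-/-, against 11.68 and 11.77 in WT. The groups overlapped, and the difference of 0.06 ± 0.15 (SE) had a 95% limma interval of -0.31 to 0.43 (adjusted p = 0.935). The interval therefore holds ratios from 0.81-fold to 1.35-fold. The tandem paralog Lyz1, the next protein-coding gene on chromosome 10, is near-identical in sequence, and the signals of the paralogs may not be separable. Its probe sets differed by 0.14, 0.04 and 0.12, and the first read 11.61 and 11.55 on the arrays labelled Alox15-/-, against 11.47 and 11.41 in WT.

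Fcgr3 encodes the low-affinity activating receptor for immunoglobulin G (CD16) of monocytes, neutrophils and natural killer cells. It read 6.63 and 7.16 on the arrays labelled Alox15-/-, against 6.57 and 6.15 in WT. The groups did not overlap, but Alox15-/- replicate 1 lay close to WT replicate 1. The difference was 0.54 ± 0.24 (SE) with a 95% limma interval of -0.08 to 1.15 and adjusted p = 0.677. It was 0.27 without Alox15-/- replicate 2, 0.32 without WT replicate 2 and 0.81 without Alox15-/- replicate 1, so single arrays moved it by over 1.5 times.

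Of the other Fc receptors, the inhibitory receptor gene Fcgr2b read 8.36 and 7.99 on the arrays labelled Alox15-/-, against 7.55 and 6.96 in WT. The difference was 0.92 ± 0.25 (SE) with limma adjusted p = 0.575, and its 4 other probe sets gave 0.29 to 1.36, all above 0. The probe set that gave 0.29 read below the bacterial controls' highest value on every array. At the one that gave 0.395 the groups overlapped. Fcgr2b and Fcgr3 lie in 1 cluster on chromosome 1 and share similar extracellular parts, so probes may read both. Fcgr1, the high-affinity receptor, differed by 0.09, as did Fcgr4, which read below the bacterial controls' highest value on every array. Fcer1g, the signalling chain that Fcgr3 needs at the cell surface, differed by -0.19 ± 0.15 (SE), and the Fc transporter Fcgrt by -0.07.

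Cd68 encodes a lysosomal glycoprotein of the macrophage series. It read 7.04 and 7.12 on the arrays labelled Alox15-/-, against 7.14 and 7.55 in WT. All values lay close together, with the arrays labelled Alox15-/- below both WT arrays. The difference was -0.27 ± 0.18 (SE) with a 95% limma interval of -0.72 to 0.18 and adjusted p = 0.757. It was -0.06 without WT replicate 2 and -0.47 without WT replicate 1, where the unadjusted limma p was 0.0362. The related lysosomal genes Lamp1 and Lamp2 differed by 0.11 and -0.06, but the 3 other probe sets of Lamp2 ran from 0.11 to 0.50. Cd68 lies on chromosome 11, as does Alox15, with 46 protein-coding genes between them, 38 of which were measured. Whether this position bears on its value was not tested.

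Igsf6 encodes an immunoglobulin-like membrane protein of monocytes and dendritic cells. It read 7.49 and 8.66 on the arrays labelled Alox15-/-, against 8.45 and 8.36 in WT. The arrays labelled Alox15-/- lay on either side of the WT pair, and their SD of 0.83 was the largest within-group SD among the members. The difference was -0.33 ± 0.38 (SE) with adjusted p = 0.868. It changed sign to 0.26 without Alox15-/- replicate 1 and was -0.92 without Alox15-/- replicate 2.

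**Figure D3:**
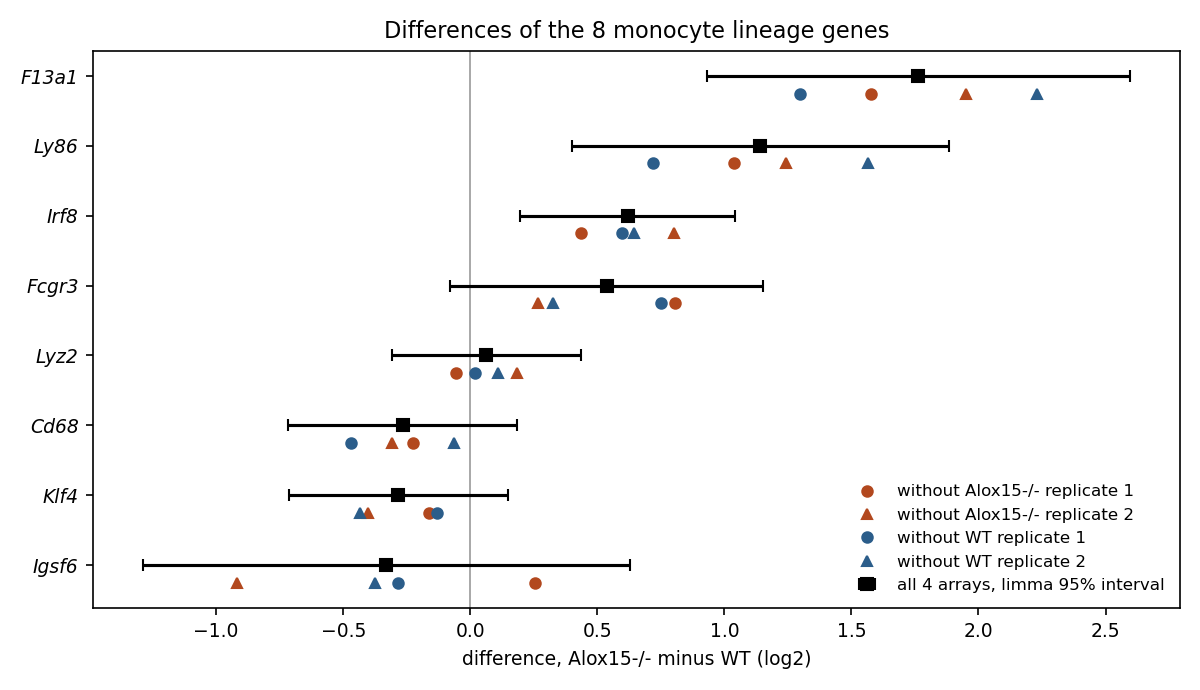
Differences (log2, Alox15-/- minus WT) of the 8 members from all 4 arrays, as squares with 95% limma intervals, and from 3 arrays with the named array left out, as coloured points. The intervals of F13a1, Ly86 and Irf8 lie above 0, those of the other 5 include 0, and Igsf6 and Lyz2 change sign without Alox15-/- replicate 1.

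An exact permutation test of the 2 against 2 arrays cannot give a two-sided p below 0.333. That smallest p was reached by the 6 members whose groups did not overlap, while Lyz2 and Igsf6 had exact p = 1. Without variance moderation the unadjusted p was 0.0721 for F13a1, 0.120 for Ly86 and 0.0778 for Irf8, so the count of members higher at p under 0.05 was then 0.

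The members did not share 1 profile over the arrays. With each gene centred on its own mean over the 4 arrays, the profiles nearest to F13a1 by Euclidean distance were S100a9 (0.33), Trim16 (0.55) and S100a8 (0.55). S100a8 and S100a9 encode the calprotectin subunits of neutrophils and monocytes. Among all other genes Ly86 ranked 6 in nearness to F13a1 and Irf8 ranked 202. Lyz2 ranked 5358 and Igsf6 ranked 17717. The nearest to Irf8 were Ypel2 (0.07), 4933407E14Rik (0.07) and Gm7008 (0.09), and F13a1 ranked 17695. Distances over 4 values describe these arrays only and depend on the size of each gene's difference.

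Of the 8 measured IRF genes Irf8 had the largest positive difference. Irf4, its closest relative, read 5.91 and 5.54 on the arrays labelled Alox15-/-, against 5.31 and 5.49 in WT, near the highest bacterial control. The difference was 0.32 ± 0.18 (SE, adjusted p = 0.715), and the second probe set of Irf4 gave 0.33. Irf9, the DNA-binding part of the interferon-activated complex ISGF3, read 8.19 and 8.21 on the arrays labelled Alox15-/-, against 8.76 and 8.62 in WT, a difference of -0.49 ± 0.13 (SE, adjusted p = 0.575). Irf1, Irf2, Irf3, Irf5 and Irf7 lay between -0.06 and 0.13 at the probe sets used, and the groups overlapped for all 5. The 3 other probe sets of Irf3 ran from -0.42 to 0.055, and the other of Irf5 gave -0.03. Of 7 measured IRF genes other than Irf8, 0 were higher and 1 was lower at an unadjusted p under 0.05. At that level 4.2% of all genes were higher and 3.57% lower. Among 15 measured KLF genes other than Klf4, 1 was higher (the erythroid factor Klf1, 0.87) and 2 were lower at that level (Klf9, -0.70, and Klf12, -0.78). Other probe sets of Klf9 ran from -0.24 to 2.27 and those of Klf12 from -1.24 to 0.11.

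Factors that act with IRF8 in myeloid cells gave no common direction. Spi1, the gene of PU.1, differed by -0.05, and Gfi1, a repressor of monocyte genes in neutrophil progenitors, by -0.02. Cebpa, the factor of granulocyte-monocyte progenitors, read 9.94 and 9.85 on the arrays labelled Alox15-/-, against 9.42 and 9.56 in WT, a difference of 0.41 ± 0.13 (SE). Cebpd read 6.86 and 7.09 on the arrays labelled Alox15-/-, against 6.10 and 6.18 in WT, a difference of 0.84 ± 0.14 (SE), with 0.68 at its second probe set. Egr1, an immediate early factor that also takes part in macrophage differentiation, read 7.24 and 6.76 on the arrays labelled Alox15-/-, against 8.33 and 8.34 in WT. Of 16 factors measured, 2 were higher and 1 was lower at an unadjusted p under 0.05, and 0 passed the adjusted threshold. The shares of all genes at that unadjusted level were 4.2% higher and 3.57% lower. Spi1 and Gfi1 were chosen for their role after their values were seen.

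Other genes of monocytes were read from a list of 32, of which 29 were measured. None passed the adjusted threshold, and 5 were higher and 1 was lower at an unadjusted p under 0.05. The groups did not overlap for 9 higher and 3 lower. Over all genes the shares were 4.2% and 3.57% at that level, and 21.4% and 17.1% without overlap. The median difference of these 29 was 0.09, against 0.02 over all genes. Ccr2, the chemokine receptor with which monocytes leave the marrow, read 5.36 and 5.64 on the arrays labelled Alox15-/-, against 4.32 and 4.68 in WT, where it lay below the highest bacterial control. Its difference was 1.00 ± 0.19 (SE, adjusted p = 0.487), with 0.04 to 1.15 at its other probe sets. Ms4a4c, a membrane gene of monocytes, differed by 0.92 (1.34 at a second probe set), and Tgfbi, which encodes an extracellular matrix protein made by macrophages, by 0.58 (0.41 to 0.52 at others). Maf, a macrophage transcription factor, differed by 0.64 at the probe set used, but its 5 others ran from -1.26 to 0.17. Csf1r, the receptor for macrophage colony-stimulating factor, differed by 0.34 ± 0.26 (SE) with overlapping groups, and its 2 other probe sets by -0.05 and 0.28. Ms4a6c differed by 0.47 (0.12 at its other probe set). Itgam differed by -0.51 ± 0.16 (SE) and Adgre1 read below the bacterial controls' highest value on every array. Csf1r, Ms4a6c and Adgre1 were chosen after their values were seen.

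Among C-type lectins, the family of Clec12a, 1 of 12 measured was higher at an unadjusted p under 0.05. At that level 4.2% of all genes were higher and 3.57% lower. Clec10a read 8.58 and 8.45 on the arrays labelled Alox15-/-, against 7.96 and 7.49 in WT, a difference of 0.79 ± 0.19 (SE, adjusted p = 0.571). It lies on chromosome 11 with 7 protein-coding genes between it and Alox15. Clec12b, the neighbouring relative of Clec12a, read below the bacterial controls' highest value on every array, as did 4 others of the list. Of 13 measured dendritic cell genes, 0 were higher and 1 was lower at that level, Zbtb46, a factor of classical dendritic cells, at -0.60 (-0.90 to -0.18 at its other probe sets).

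**Figure D4:**
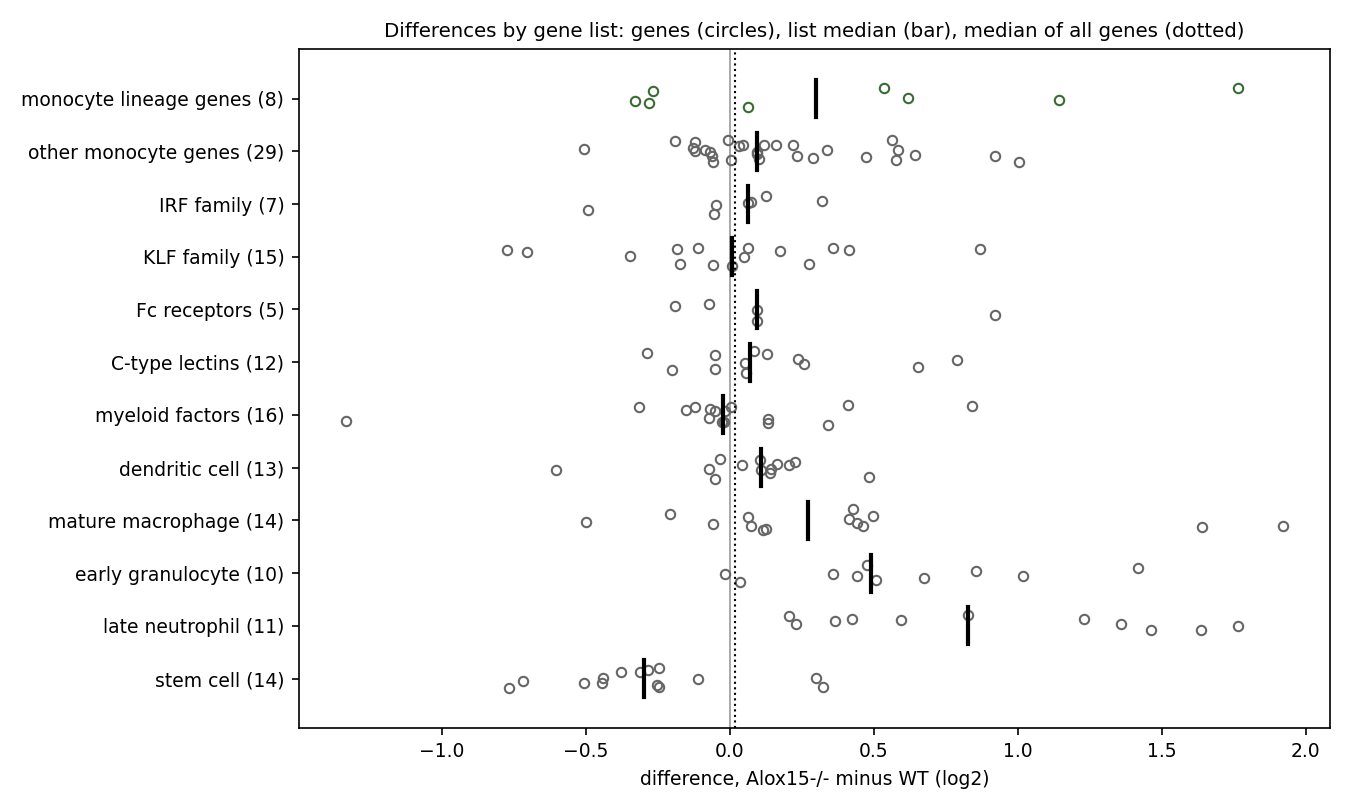
Differences (log2, Alox15-/- minus WT) of the measured genes of each list, with the number measured in brackets, the list median as a bar and the median over all genes as a dotted line. The monocyte lineage genes spread from -0.33 to 1.76 around a median of 0.30, the other monocyte genes have a median of 0.09, and the neutrophil list has 0.83.

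Markers of neighbouring cell types were read on the same arrays. Early granulocyte genes were higher at an unadjusted p under 0.05 in 7 of 10 cases and lower in 0, with a median of 0.49. The shares of all genes at that level were 4.2% higher and 3.57% lower. Ctsg, a granule protease gene, differed by 1.42, Ms4a3 by 1.02 and the haptoglobin gene Hp by 0.67. Late neutrophil genes were above 0 in 11 of 11 cases, against 53.8% of all genes, and their median was 0.83. Of them 4 were higher at that level, among them Mmp8, which read below the bacterial controls' highest value on every array. S100a9 read 10.38 and 9.98 on the arrays labelled Alox15-/-, against 8.16 and 9.28 in WT. Their mean level relative to the 4-array mean was 0.61 and 0.31 on the arrays labelled Alox15-/-, against -0.94 and 0.03 in WT, so WT replicate 1 lay far below the other 3. Without that array the median of the late neutrophil genes was 0.42. Lcn2 (-0.04) and Cxcr2 (-0.165) then fell below 0, while the other genes of the list stayed above 0. Lcn2 and Cxcr2 were named after their values were seen. For the 8 monocyte lineage genes the mean level relative to the 4-array mean was 0.15 and 0.26 on the arrays labelled Alox15-/-, against -0.30 and -0.11 in WT.

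Of 14 mature macrophage genes, whose cells lie outside the sorted gate, 4 were higher and 1 was lower at an unadjusted p under 0.05. Their median was 0.27. At that level 4.2% of all genes were higher and 3.57% lower. Mrc1, the mannose receptor gene, read 7.30 and 6.03 on the arrays labelled Alox15-/-, against 4.24 and 5.24 in WT. The complement gene C1qb, named after its values were seen, read 9.53 and 6.23 on the arrays labelled Alox15-/-, against 4.92 and 7.55 in WT, and its groups overlapped. The list's mean level was 6.48 and 6.19 on the arrays labelled Alox15-/-, against 5.69 and 6.20 in WT, and again WT replicate 1 was lowest. Adgre1 and Timd4 read below the bacterial controls' highest value on every array, and Timd4 was among the 4 higher genes. The 1 lower gene was Axl (-0.50, with 0.16 at its other probe set). Of 14 stem cell genes 0 were higher and 5 were lower at that level, and their median was -0.30, with Hlf at -0.77, Meis1 at -0.51, Mllt3 at -0.44 and Fgd5 at -0.44 among them. The part that neutrophil, macrophage or stem cell content plays in the values of F13a1, Ly86 and Irf8 was not tested. Without WT replicate 1 their differences were 1.30, 0.72 and 0.60.

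**Figure D5:**
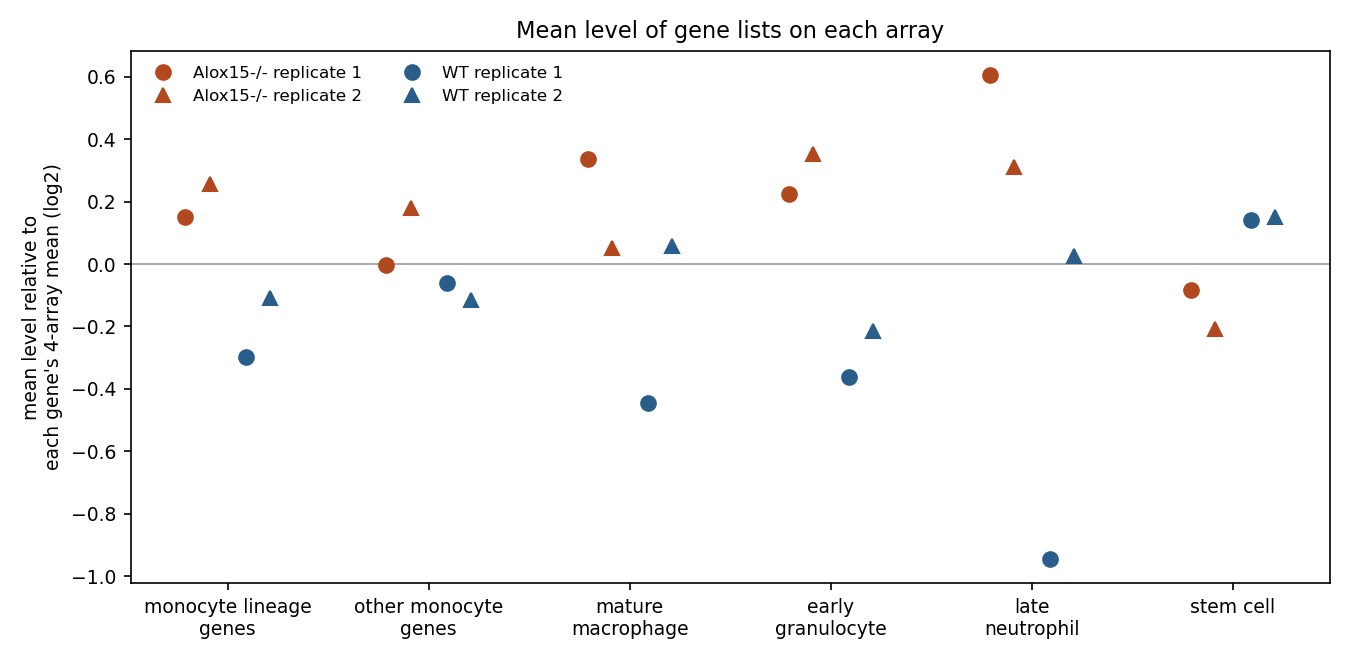
Mean log2 level of 6 gene lists on each array, relative to each gene's mean over the 4 arrays, with arrays labelled Alox15-/- left of WT within each list. WT replicate 1 lies lowest for 4 of the 6 lists, at -0.94 for late neutrophil genes, and the stem cell list runs the other way, at -0.08 and -0.21 on the arrays labelled Alox15-/- and 0.14 and 0.15 in WT.

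Markers of mast cells, basophils and eosinophils, of B cells, of T and NK cells and of erythroid cells were read as well. No list of megakaryocyte genes was read. At an unadjusted p under 0.05, 4.2% of all genes were higher and 3.57% lower. Of 11 mast cell, basophil and eosinophil genes 5 were higher at an unadjusted p under 0.05, and the median was 0.65, led by Prg2 (1.22, below the highest bacterial control on 3 arrays), Fcer1a (0.92, below the controls on every array), Cpa3 (0.84) and Siglecf (0.72). Of 9 B cell genes 2 were higher, Jchain (1.00) and Igll1 (0.57, with 0.06 at its other probe set), and 1 was lower, Ebf1 (-0.42, with probe sets of both signs). Of 8 T and NK cell genes 0 were higher and 1 was lower, the adaptor gene Lat (-0.36). Of 9 erythroid genes 1 was higher, Klf1. The 3 prime minus 5 prime gap of the Gapdh control probe sets was 2.14 and 2.17 on the arrays labelled Alox15-/-, against 2.37 and 2.39 in WT, without overlap. The same gap for Actb was -0.13 and -0.28 on the arrays labelled Alox15-/-, against -0.23 and -0.19 in WT, and the groups overlapped. The part of RNA quality, to which these gaps relate, was not tested.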

How the data were processed

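Expression was measured on 4 Affymetrix arrays, 2 labelled Alox15-/- and 2 labelled WT, grouped by sample title. The authors deposited log2 values, made with Affymetrix Expression Console 1.1 and RMA, per the submitters' processing notes. RMA as a rule corrects background, equalises the arrays by quantiles and sums probes into probe sets, which can shrink differences between arrays. Labelling used a whole-transcript sense kit, per the labels' protocols. The number of arrays limits the precision.

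Of 45101 probe sets, 34958 had 1 gene symbol in the platform annotation, 932 several and 9211 none. Each of 18194 genes kept its probe set with the highest mean. The difference, Alox15-/- minus WT, was estimated for all genes together by lmFit and eBayes of limma 3.58.1 (R 4.3.3), with two-sided tests and no replicate block. Adjusted p-values follow Benjamini and Hochberg, the threshold being 0.05, and the code was tested on simulated data. The members, gene lists and tests were chosen with earlier results of these data known. Named were the members, their relatives and partners, and in each other list up to 4 genes with unadjusted p under 0.05, no overlap and the largest differences. Promoters came from RefSeq (GRCm38.p6), with windows for all 8 measured members. The data table names no build, so gene order served only to name neighbours. Alternatives covered normalization, dim genes, variance moderation, array weights, probe set choice, a replicate block, the threshold and leaving out each array. Figures used matplotlib 3.10.9.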

Additional observations from a re-analysis of the deposited data

How the results depend on the processing

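Over the 15 or 16 alternatives that gave a value, F13a1 kept a positive difference (1.30 to 2.23), as did Ly86 (0.72 to 1.57), Irf8 (0.44 to 0.80) and Fcgr3 (0.27 to 0.81), and Cd68 (-0.47 to -0.06) and Klf4 (-0.43 to -0.04) a negative one. For Klf4 this holds for the probe set used and the mean of its probe sets, while its second probe set alone differed by 0.21. Lyz2 turned to -0.055 (over left-out arrays -0.055 to 0.18) and Igsf6 to 0.26 (-0.92 to 0.26), both without Alox15-/- replicate 1, and the cause was not tested. No member passed the adjusted threshold in any alternative, at 0.05 or 0.1, and the lowest adjusted p was 0.174, for F13a1 with a mean-dependent prior variance.

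That prior gave 22 genes past the threshold against 1, testing every probe set on its own gave 2, and leaving out any 1 array gave 0, in fits that assume the lone array to vary like the other group. Members higher at an unadjusted p under 0.05 numbered 3, but 0 without variance moderation and 2 to 3 without 1 array. Members lower numbered 0 to 1 without 1 array. Without the lowest 50 percent of genes only 5 members were tested, of which 3 had a positive difference, with a median of 0.064 against 0.30. The median without 1 array ran from 0.22 to 0.35 for the members and from 0.09 to 0.14 for other monocyte genes.

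The labels do not say whether same-numbered arrays shared a day or batch, and the 1 correlation available cannot settle it. Deviations of same-numbered arrays from their group means correlated at -0.02 over 18194 genes. With the replicate block 1 gene passed, F13a1 had adjusted p = 0.409 and 3 members were higher at an unadjusted p under 0.05. Among the members, signals near the bacterial controls limit Klf4.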
